A study of Mus musculus with 12 samples.

Results

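G protein gamma subunits are small prenylated proteins that bind a beta subunit for life, and the beta-gamma pair docks to an alpha subunit at receptors on the plasma membrane. When a receptor is activated the alpha subunit and the beta-gamma pair separate, and the pair itself acts on potassium and calcium channels, adenylyl cyclases, phospholipases and receptor kinases. The gamma subunit carries the lipid anchor and influences which beta subunits, receptors and effectors a pair works with. In cortex, Gng2, Gng3, Gng4 and Gng7 are known mainly as neuronal genes, whereas Gng5, Gng10 and Gng12 are expressed in many cell types, glia among them.

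The genes described here are Gng4 and 8 other members of the family, Gng2, Gng3, Gng5, Gng7, Gng10, Gng11, Gng12 and Gng13, which are 9 of the 52550 genes in the deposited count table. The group was chosen by the measured level of Gng4, which was higher in each Fmr1 knockout library than in any wild-type library, so the knockout against wild-type values of Gng4 are given as a description without a test. All 9 passed the filter on low counts. The other 3 genes of the family were scarce or absent: Gngt1, the rod photoreceptor gamma subunit, had 0 counts over all libraries, Gngt2, the cone subunit, had 75 and Gng8, an olfactory subunit, had 49. Neither of these passed 0.937 CPM in any library.

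Libraries came from astrocyte TRAP, in which ribosomes of 1 cell type carry an eGFP tag and are pulled down with their RNA by an anti-eGFP antibody. Both groups carry the Aldh1l1-TRAP transgene, whose Aldh1l1 promoter is active in astrocytes, on a mixed FVB and C57 background. Tissue was somatosensory cortex at postnatal day 40. Groups were Fmr1-/y (knockout, libraries 14, 16 and 18) and Fmr1+/y (wild type, libraries 13, 15 and 17). Loss of Fmr1 and its product FMRP, which binds RNA, underlies fragile X syndrome. Each library was deposited as 2 entries, which were summed. Where 3 values are given for a group, they follow the library order 14, 16, 18 for the knockout and 13, 15, 17 for the wild type. Nothing in the labels says that the libraries came from separate animals, so p-values measure only the spread between these libraries.

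Summed counts per library ran from 10953947 to 22397234. In knockout libraries 14 and 16, 35.6% and 45.1% of counts lay on 3 features on which ribosomal RNA reads are known to collect (CT010467.1, Lars2 and AY036118), against 0.892% to 7.45% in the other libraries, so these libraries held 10146196 and 6012101 other counts. Fmr1 stood at 1.32 to 4.32 CPM (read counts scaled to library size by TMM and given per 10 to the power 6 reads) in the libraries labelled knockout and at 31.6 to 38.4 CPM in the wild type. All 16 astrocyte markers were detected, with a summed level of 32752 to 39938 CPM in the knockout and 33632 to 41390 CPM in the wild type. The 16 neuron markers were detected as well, at a summed 2380 to 3364 and 1737 to 3179 CPM. In such bulk RNA, fewer cells of a type and less RNA per cell cannot be told apart.

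Gng4 (ENSMUSG00000021303) lies on chromosome 13 from 13784059 to 13827895 (RefSeq, GRCm38.p6, which is the mm10 assembly), and no other RefSeq gene overlaps it. RefSeq promoter windows were matched for 8 of the 9 members. The sequence shown is the 250 bases before the upstream of 2 annotated Gng4 starts, chr13:13783809-13784058 on the plus strand, because Gng4 is the member whose level set this group apart. Capitals mark matches to a CCAAT box and E-boxes.
Gng4 upstream: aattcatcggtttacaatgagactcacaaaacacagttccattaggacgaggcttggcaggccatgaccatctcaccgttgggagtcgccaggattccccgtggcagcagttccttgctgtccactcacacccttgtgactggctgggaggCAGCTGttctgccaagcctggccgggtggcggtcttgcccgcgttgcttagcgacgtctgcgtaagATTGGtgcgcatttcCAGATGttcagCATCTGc

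The window holds 1 CCAAT box (CCAAT, here on the minus strand, beginning 33 bases before the start) and 3 E-boxes (CANNTG, beginning 99, 18 and 7 bases before it). Both strands were searched. Of 32851 RefSeq windows of this length, 33.8% hold a CCAAT box and 66.2% an E-box. No match was found to the TATA box (TATAAA, in 12.4% of windows), the GC box (GGGCGG, 32.7%), the cyclic AMP response element (TGACGTCA, 1.55%) or the AP-1 site (TGANTCA, 6.75%). GC content of the window was 56.4%, against a median of 52.4% over all windows. These are letter matches only, and nothing in these libraries measured binding or promoter use.

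Gng4 was higher in the knockout, as the choice of the group fixed. No other member had groups that stood apart. Over all genes, 2.95% had every knockout library above and 3.25% below every wild-type library, so this is no result about the members. The level of Gng4 was 23.9, 22.1 and 25.6 CPM (knockout) against 14.0, 14.6 and 17.4 CPM (wild type). The groups did not overlap: the lowest knockout value, in library 16, was 1.27 times the highest wild-type value, in library 17. Group means were 23.9 ± 1.75 and 15.3 ± 1.81 CPM (SD, n = 3 each), a ratio of 1.56, and the fitted log2 fold change was 0.64. The SD of Gng4 among knockout libraries was 7.34% of its mean, and that of the other members ran from 5.82% for Gng7 to 42.7% for Gng13. Choosing Gng4 for groups that do not overlap favours a small spread, so its SD is a description only.

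**Figure D1:**
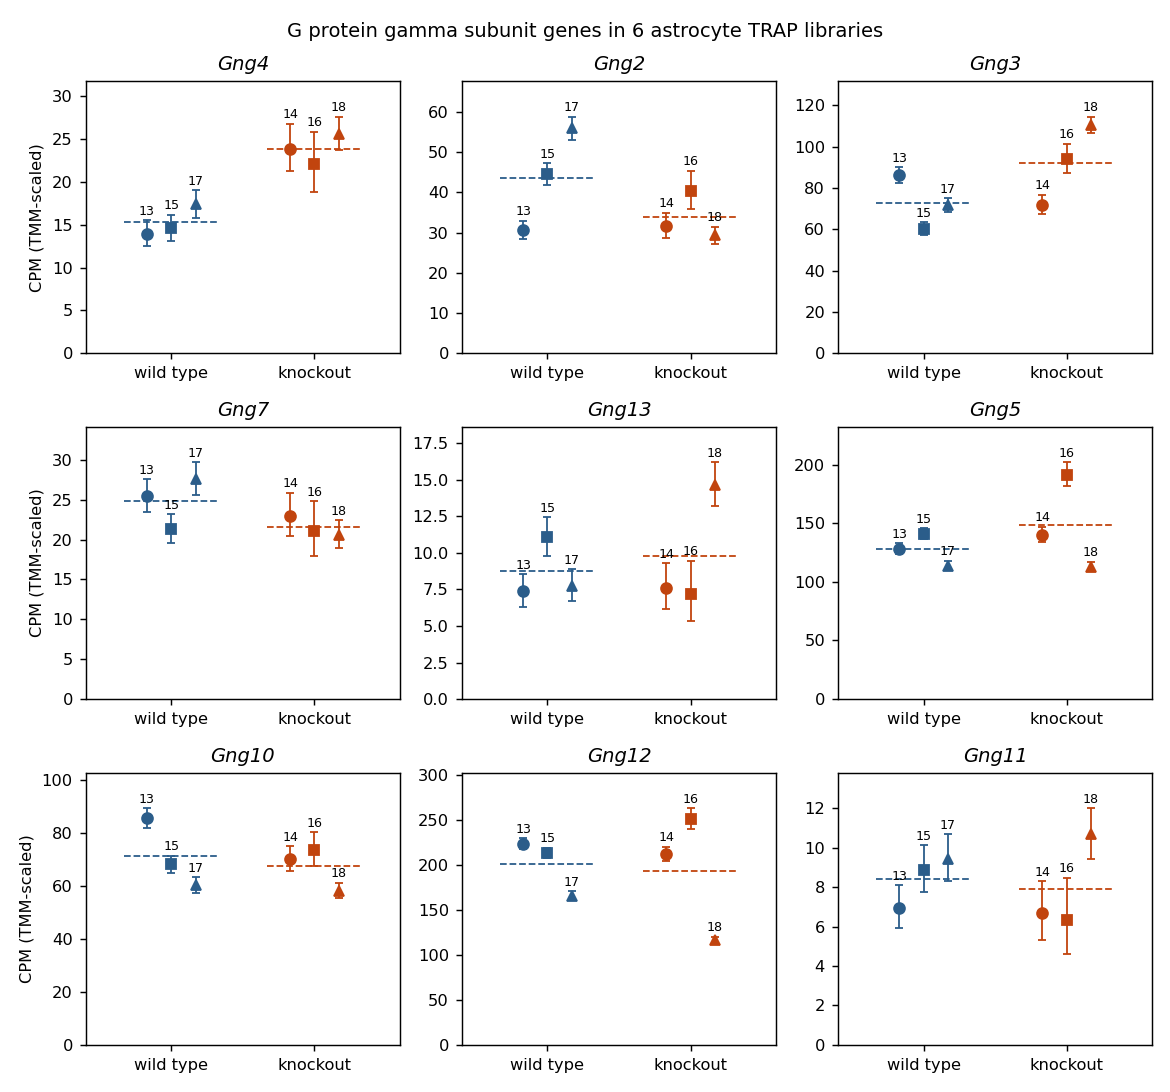
Level of each gamma subunit gene in TMM-scaled CPM (vertical axis, starting at 0) in the 3 wild-type (blue) and 3 Fmr1 knockout (orange) libraries, numbered as in the text. Error bars are exact 95% Poisson intervals of the summed count and cover counting error only, and dashed lines are group means. Gng4 is the 1 gene whose knockout libraries, at 22.1 to 25.6 CPM, all lie above the wild-type libraries, at 14.0 to 17.4 CPM.

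Behind these levels were 293, 157 and 662 Gng4 reads (knockout) against 328, 370 and 454 (wild type). Counting error alone is then 3.89% to 7.98% of the value per library. The 95% Poisson interval of library 16, the shallowest, ran from 18.8 to 25.8 CPM, and that of wild-type library 17 from 15.8 to 19.05 CPM, so counting error alone lets those neighbours touch, while the other 4 libraries' intervals do not reach across the groups. Every Gng4 count was a whole number in all 12 entries, so the counts show no sign that Gng4 reads were divided with another feature. Entries of 1 library gave 330 and 332 reads in library 18 and 67 and 90 in library 16. The widest disagreement beyond counting error was in wild-type library 17, at 244 and 210 reads (chi-square 5.45 with 1 degree of freedom).

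The Gng4 difference had a like size in both months that the library titles carry. Titles hold what reads as a month and day, and what these date is not given. In month 5 knockout libraries 14 and 16 exceeded wild-type library 13 by 0.71 on the log2 scale, and in month 6 knockout library 18 exceeded wild-type libraries 15 and 17 by 0.68. With 1 library on a side in each month, these are values without a test. Gng4 was chosen for groups that do not overlap, so a higher knockout level in each month was fixed in advance. The fitted log2 fold change ran from 0.58 without wild-type library 13 to 0.77 without both knockout libraries rich in ribosomal RNA. The choice of Gng4 also largely fixed the sign of its fold change when libraries were left out. In the authors' deposited table the log2 fold change of Gng4 was 0.65 with an adjusted p of 0.00437, over 14843 features. How that test treated the paired entries is not stated. Its p-value comes from the same libraries whose Gng4 levels chose the group, so no conclusion is drawn from it. The edgeR quasi-likelihood test used here made no call for Gng4 after adjustment. The other 8 members had adjusted p from 0.576 (Gng3) upward in the authors' deposited table.

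Several marker lists of other cell types followed the order of Gng4 within each genotype, and astrocyte markers ran in the reverse order. Endothelial, microglia and ependyma markers did not follow it in both genotypes. Counting error leaves much of this Gng4 order unresolved. Poisson intervals of Gng4 were 18.8 to 25.8, 21.2 to 26.8 and 23.7 to 27.6 CPM in knockout libraries 16, 14 and 18. These all overlapped. In wild-type libraries 13, 15 and 17 they were 12.5 to 15.6, 13.2 to 16.2 and 15.8 to 19.05 CPM. Only those of libraries 13 and 17 lay apart. With 3 libraries per genotype, a marker list can also match an order easily. Relative to the wild-type mean, the median log2 level of the 16 neuron markers was -0.61, 0.23 and 0.39 in wild-type libraries 13, 15 and 17, the order in which Gng4 rose there. In knockout libraries 16, 14 and 18 it was -0.21, 0.020 and 0.52, again the order of Gng4. Of the neuron markers 12 of 16 had a higher fitted level in the knockout, with a median log2 fold change of 0.094. The 10 oligodendrocyte markers had medians of -0.57, -0.0063 and 0.51 in wild-type libraries 13, 15 and 17 and of -0.70, 0.065 and 0.72 in knockout libraries 16, 14 and 18. For the 8 markers of oligodendrocyte precursors the medians were -0.41, 0.033 and 0.24 in that wild-type order and -0.080, 0.13 and 0.35 in that knockout order. Summed precursor markers stood at 212 to 254 CPM in the knockout and 182 to 201 CPM in the wild type, so that their groups did not overlap, while the summed oligodendrocyte markers (637 to 1472 and 700.4 to 1246 CPM) and neuron markers did. That sum is carried by the more abundant precursor markers, since the median marker level was 4.13 to 8.78 CPM. Wild-type library 17 had the highest median level and the lowest sum. Of the 8 precursor markers 5 were higher and 3 lower in the knockout. Every knockout library lay above every wild-type library in 1 of them (2.95% of all genes). The 10 mural and fibroblast markers tested had medians of -0.022, -0.012 and 0.013 in wild-type libraries 13, 15 and 17. In knockout libraries 16, 14 and 18 these were -0.17, -0.084 and 0.21. Astrocyte marker medians ran the reverse way, at 0.21, 0.087 and -0.36 in those wild-type libraries and 0.24, 0.11 and -0.31 in those knockout libraries. The part that RNA of any of these cell types has in the Gng4 level was not tested.

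**Figure D2:**
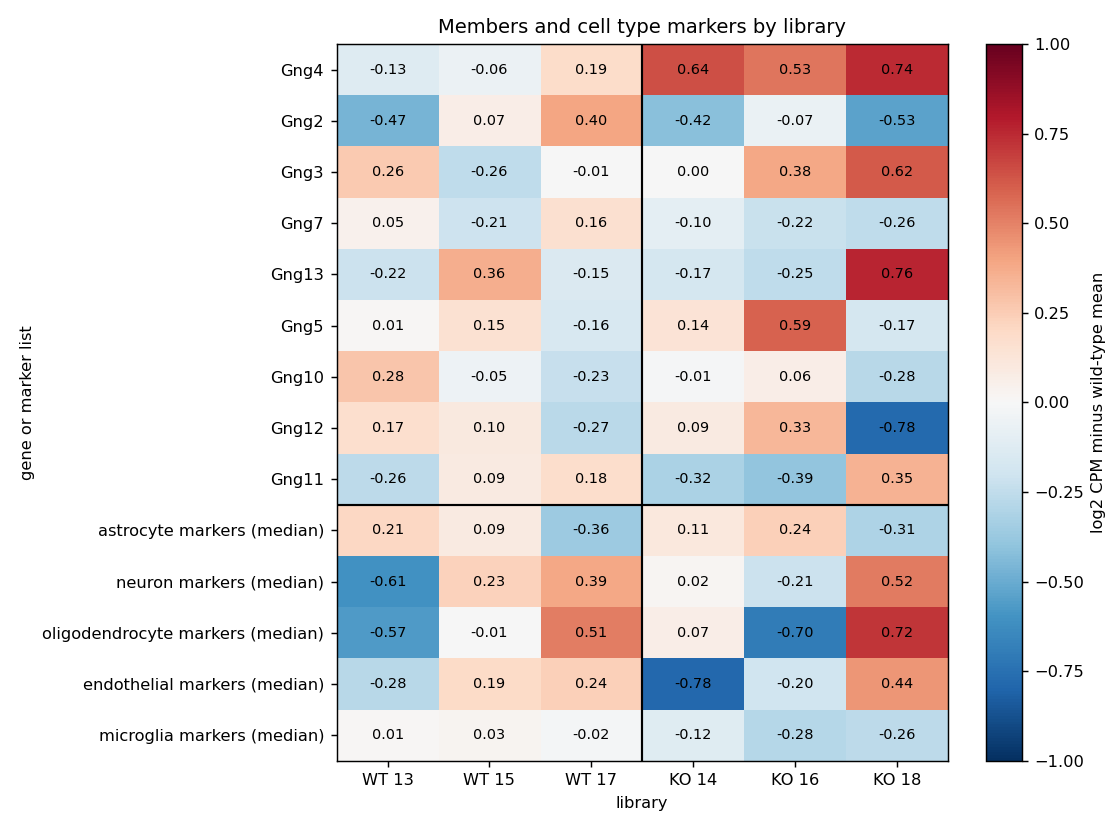
Log2 CPM of each gamma subunit gene, and the median over each list of cell type markers, minus the wild-type mean of the same gene (colour and printed value) in each library. Gng4 is between 0.53 and 0.74 in all 3 knockout libraries, the neuron marker median lies between -0.61 and 0.52 over all libraries, and Gng12 is lowest in knockout library 18.

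Of the 9 members, 4 were higher and 5 lower in the knockout, and the median log2 fold change was -0.059, against -0.0019 over the 14990 genes tested. In edgeR's quasi-likelihood test no member passed a Benjamini-Hochberg adjusted p of 0.05, and 0% of all genes did. Fmr1 itself, at a log2 fold change of -3.53, had an adjusted p of 0.30 in that test. The lack of calls therefore does not show that levels were equal. At an unadjusted p of 0.05, 0 of the 8 members other than Gng4 passed, where 1.77% of all genes did. Every knockout library lay above every wild-type library in 1 of 9 members, Gng4 itself, as the choice of the group fixed (2.95% of all genes), and every knockout library lay below in 0 of 9 (3.25% of all genes). For the other 8, the exact permutation test over 6 libraries gave two-sided p between 0.2 and 0.9, and it cannot go below 0.1.

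**Figure D3:**
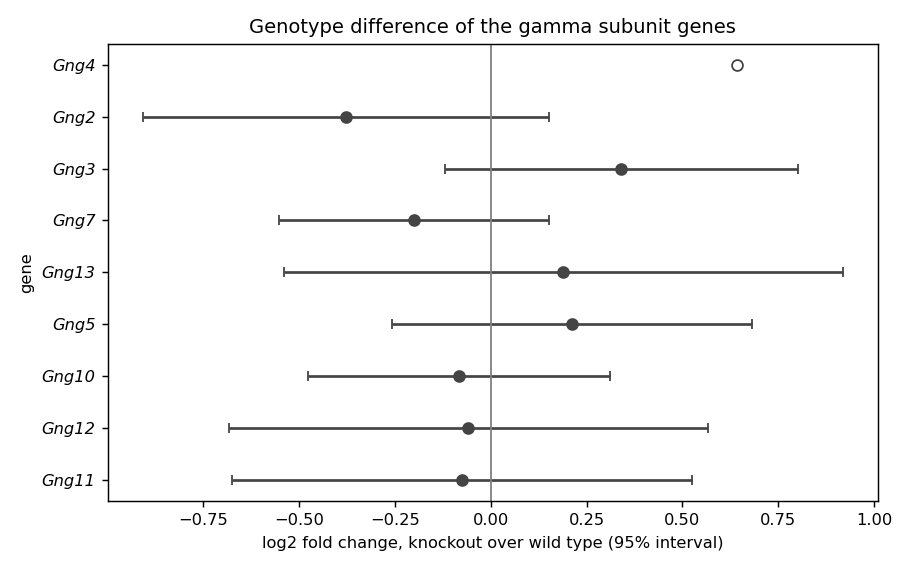
Fitted log2 fold change of each gamma subunit gene, knockout over wild type (horizontal axis), with 95% intervals from edgeR's quasi-likelihood fit over 6 libraries. Gng4, drawn open and without an interval because its values chose the group, stands at 0.64, and the intervals of the other 8 genes all contain 0.

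The other members lie apart from Gng4 and mostly from each other (RefSeq, GRCm38.p6). Gng2 is on chromosome 14 from 19872558 to 19977825, Gng3 on chromosome 19 from 8836929 to 8839246 and Gng7 on chromosome 10 from 80948624 to 81014925. Gng13 is on chromosome 17 from 25717172 to 25719102, Gng5 on chromosome 3 from 146499836 to 146505543 and Gng10 on chromosome 4 from 59035156 to 59041899. Gng11 and Gng12 share chromosome 6, the first from 4003987 to 4008445 and the second from 66896397 to 67021361. No annotated gene overlaps Gng2, Gng5, Gng10 or Gng11, whereas Gng7 overlaps the pseudogene Gm3828 and Gng12 overlaps noncoding genes that were not tested.

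Gng2 and Gng3 are the members usually grouped with Gng4, as closely related brain gamma subunits, and their fold changes had opposite signs. Gng2, one of the commonest partners of the beta 1 subunit in brain, stood at 31.6, 40.4 and 29.3 CPM (knockout) against 30.7, 44.5 and 55.9 CPM (wild type). The groups overlapped, since wild-type library 13 was among the low libraries. The log2 fold change of Gng2 was -0.38 (SE 0.23), which allows a fold from 0.533 to 1.11 (95% interval; exact permutation p = 0.3). Without wild-type library 17 it was -0.16, without wild-type library 13 it was -0.58 (unadjusted p 0.0171 in edgeR's quasi-likelihood test), and with ribosomal RNA share as covariate it was -0.59.

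Gng3, a gamma subunit of neurons, measured 71.9, 94.1 and 110 CPM (knockout) against 86.4, 60.3 and 71.7 CPM (wild type). Its highest value was in knockout library 18 and the groups overlapped through wild-type library 13. The log2 fold change was 0.34 (SE 0.20), allowing a fold from 0.920 to 1.74 (exact permutation p = 0.2). It was 0.19 without knockout library 18, 0.49 without knockout library 14 and 0.56 with ribosomal RNA share as covariate. The last 2 had unadjusted p of 0.0458 and 0.0473 in edgeR's quasi-likelihood test, with no call after adjustment. The main fit gave 0.127 by that test. Without both libraries 14 and 16, which leaves 1 knockout library, the log2 fold change was 0.63. Unlike Gng4, Gng3 was highest among wild-type libraries in library 13, where the neuron markers were lowest. Gng3 overlaps Bscl2, which stood at 46.4 ± 3.88 and 49.4 ± 2.56 CPM (SD, n = 3 each). No source used here states the strand setting of the counting, so reads of overlapping genes may be shared.

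Counts of Gng2 and Gng3 were fractional in all 12 entries, those of Gng13 were whole in 4 and those of Gng10 and Gng12 in 9, so the counting program divided some of their reads with other features or copies. Levels of these 5 genes are the less certain for it. By month, the log2 difference of Gng2 was 0.22 in month 5 and -0.77 in month 6, and that of Gng3 was -0.071 and 0.75, so neither kept its sign.

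Gng7, known for its part in striatal signalling with Gnal, was the steadiest of the other members. It stood at 23.0, 21.1 and 20.6 CPM (knockout) against 25.5, 21.3 and 27.6 CPM (wild type). Only wild-type library 15 reached into the knockout range. The log2 fold change was -0.20 (SE 0.15), with a fold interval of 0.682 to 1.11 (exact permutation p = 0.2), and the differences within months 5 and 6 were -0.21 and -0.23. Leaving out single libraries gave -0.29 to -0.12.

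Gng13, the gamma subunit of taste cells and retinal bipolar cells, had 1 library apart from the rest. Knockout library 18 held 14.6 CPM, and libraries 14 and 16 held 7.59 and 7.18 CPM. Wild-type libraries 13, 15 and 17 held 7.37, 11.1 and 7.73 CPM. The log2 fold change of 0.19 (SE 0.32) turned to -0.24 without library 18, and it was 0.59 with ribosomal RNA share as covariate and 0.77 without both libraries 14 and 16. Gng13 overlaps Chtf18, a gene with a knockout mean of 0.495 and a wild-type mean of 0.701 CPM.

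The broadly expressed members had overlapping groups. Gng12, which has been linked to the actin cytoskeleton, measured 212, 251 and 116 CPM (knockout) against 224, 213 and 165 CPM (wild type). Library 18 was the lowest of all and library 16 the highest, both of them knockout. Its log2 fold change was -0.059 (SE 0.27), with a fold interval of 0.622 to 1.48 (exact permutation p = 0.8), and it became 0.20 without library 18 and 0.026 without wild-type library 13. It was -0.72 with ribosomal RNA share as covariate, with an unadjusted p of 0.00987 in edgeR's quasi-likelihood test and no call after adjustment. Without both libraries 14 and 16 it was -0.77, and library 18 is then the only knockout library. The treatment of libraries rich in ribosomal RNA and the weight of library 18 cannot be told apart here. Astrocyte markers were low in the libraries lowest in Gng12 within each genotype. Their medians were -0.31 in library 18 and -0.36 in library 17, against 0.087 to 0.24 in the other 4. The part of astrocyte RNA in the Gng12 level was not tested.

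Gng10, another widely expressed subunit, stood at 70.2, 73.8 and 58.3 CPM (knockout) against 85.6, 68.2 and 60.3 CPM (wild type). Library 18 was the lowest knockout library and library 17 the lowest wild-type library, as for Gng12. Its log2 fold change of -0.084 (SE 0.17) turned to 0.067 without wild-type library 13 and to 0.012 without knockout library 18, and it was -0.27 without both libraries 14 and 16.

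Gng5 measured 140, 192 and 113 CPM (knockout) against 128, 141 and 114 CPM (wild type). Library 16 alone was high. The log2 fold change of 0.21 (SE 0.20; exact permutation p = 0.7) allowed a fold of 0.836 to 1.604 and became -0.014 without library 16, which is the library with the largest ribosomal RNA share.

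Gng11, which carries a farnesyl rather than a geranylgeranyl anchor, had the lowest counts of the 9, with 45 reads in library 16. It stood at 6.69, 6.34 and 10.7 CPM (knockout) against 6.94, 8.89 and 9.45 CPM (wild type). Library 18 was high and the other knockout libraries were low. The 8 endothelial markers tested had medians of -0.78, -0.20 and 0.44 (knockout) against -0.28, 0.19 and 0.24 (wild type). The libraries low in Gng11 were thus those low in endothelial markers. These markers were scarce, with a median level per library of 0.530 to 1.61 CPM. Medians of the neuron markers and of the mural and fibroblast markers were lowest in the same libraries, so the match was not particular to endothelial markers. Whether Gng11 is linked to RNA of any of these cell types was not tested. The log2 fold change of -0.075 (SE 0.26) changed sign without knockout library 14 (0.035), without knockout library 16 (0.051) and without wild-type library 17 (0.019).

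Summed over the 9 members, the level was 587, 708 and 499 CPM (knockout) against 608, 584 and 530 CPM (wild type), with the groups overlapping. Gng4 made up 4.07%, 3.12% and 5.14% of that sum in the knockout and 2.30%, 2.504% and 3.28% in the wild type, so that its share in knockout library 16 fell just under that of wild-type library 17. Transcript lengths were not used here, so these CPM shares are not shares of molecules and levels are not ranked between genes.

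Genes whose pattern was most like that of Gng4 were taken by Pearson r of log2 CPM over the 6 libraries, among 9348 genes with a mean of at least 10 CPM. They were Dnajb1, a heat shock co-chaperone (r = 0.98), Zcchc18 (0.98), Nxph3, a neurexophilin (0.97), Pelo, a ribosome rescue factor (0.96), and Swsap1 (0.96). Nxph3 measured 19.5 CPM on average with Fmr1 knocked out against 13.02 CPM without, and Dnajb1 42.3 against 36.7 CPM. After the genotype means were subtracted, the highest r were those of Mga (0.998), Prkdc (0.996), Zfp518b (0.99), Tnr, which encodes tenascin-R (0.99), and Eepd1 (0.99), none of which was also in the first 5. Among the members the r with Gng4 over 6 libraries was 0.55 for Gng3, 0.11 for Gng5, -0.36 for Gng2, -0.41 for Gng12 and -0.48 for both Gng7 and Gng10, and 695 genes had a higher r than Gng3. All points share the same 6 libraries and so few points give high values easily, so these are descriptions only.

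Of 74 further genes of the G protein pathway, on 7 lists, 62 were tested. By edgeR's quasi-likelihood test and Benjamini-Hochberg adjustment the calls numbered 0, and 1 gene had an unadjusted p under 0.05 (1.77% of all genes did), with 25 higher, 37 lower and a median log2 fold change of -0.042. Every knockout library was above every wild-type library in 0 of the 62 (2.95% of all genes) and below in 2, Rgs10 and Pggt1b (3.25% of all genes). These counts are near the shares over all genes and are no result about the pathway.

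Beta subunits, the obligate partners of the gamma subunits, were 4 of 5 tested, with log2 fold changes from -0.10 to 0.079. Gnb1, the main brain beta subunit, measured 557 ± 54.8 CPM, knockout, against 597 ± 23.3 CPM, wild type (SD, n = 3 each), which allows a fold from 0.753 to 1.16. Gnb2 stood at 303 ± 26.8 and 289 ± 10.7 CPM. Gnb5, which pairs with the RGS proteins that carry a gamma-like domain, stood at 93.5 ± 15.8 and 88.9 ± 18.02 CPM.

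Alpha subunits, 12 of 16 tested, had a median of -0.051, with 4 higher and 8 lower. Gnas, the stimulatory alpha subunit, measured 881 ± 43.2 against 920 ± 28.4 CPM (SD, n = 3 each), and Gna12 310 ± 23.2 against 288 ± 58.7 CPM. Gnal, the olfactory and striatal stimulatory subunit that works with Gng7, stood at 25.4 ± 2.16 against 29.6 ± 7.22 CPM.

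Targets of the beta-gamma pair and the receptor kinases it recruits, 16 of 19 tested, had a median of -0.047 with 6 higher and 10 lower. Kcnj6, a potassium channel opened by beta-gamma, measured 12.7 ± 1.62 against 11.1 ± 1.97 CPM (SD, n = 3 each). Grk3, a receptor kinase that beta-gamma brings to the membrane, stood at 90.2 ± 6.26 against 82.1 ± 17.1 CPM. Plcb2, a phospholipase that beta-gamma activates, was near the floor, with a knockout mean of 0.289 and a wild-type mean of 0.582 CPM.

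Genes for folding and prenylation, 9 of 10 tested, had a median of 0.0052. Pggt1b, a subunit of the enzyme that attaches geranylgeranyl to most gamma subunits, Gng4 among them, measured 13.9, 11.7 and 12.3 CPM (knockout) against 13.97, 16.7 and 14.7 CPM (wild type). The highest knockout and the lowest wild-type value were nearly equal, and the log2 fold change was -0.26 (SE 0.17; exact permutation p = 0.1, the smallest possible). Rce1, the protease that trims prenylated tails, stood at 8.75 ± 0.586 against 7.40 ± 0.960 CPM (SD, n = 3 each), and Ric8b, a chaperone of alpha subunits, at 28.3 ± 4.17 against 26.1 ± 1.74 CPM.

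Regulators of G protein signalling held the single unadjusted p under 0.05. RGS proteins with a gamma-like domain and their anchors, 5 of 6 tested, had a median of -0.0071, with Rgs7 at 39.6 ± 7.27 against 51.8 ± 11.1 CPM, Rgs7bp at 77.2 ± 15.7 against 83.7 ± 16.5 CPM and Rgs11 at 1.09 ± 0.456 against 0.682 ± 0.0378 CPM (SD, n = 3 each). The other RGS and GoLoco genes, 14 of 15 tested, had a median of -0.11 with 5 higher and 9 lower. Gpsm1, which binds inactive alpha subunits, measured 31.7 ± 4.03 against 24.0 ± 5.21 CPM, and Rgs2, an inhibitor of Gq signalling, 17.5 ± 2.12 against 14.2 ± 1.06 CPM.

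Rgs10, an RGS gene known for its expression in microglia, measured 7.26, 4.79 and 5.49 CPM (knockout) against 7.28, 9.05 and 9.68 CPM (wild type). Its groups barely separated, and the log2 fold change was -0.56 (SE 0.24), with an unadjusted p of 0.0445 and an adjusted p of 1.00 in edgeR's quasi-likelihood test. The 12 microglia markers had medians of -0.12, -0.28 and -0.26 in the same knockout libraries, against 0.013, 0.031 and -0.022 in the wild type. Their summed levels were 65.5, 58.2 and 57.6 against 79.3, 73.0 and 61.1 CPM, with no marker at 0. Among wild-type libraries the sum thus fell in the order in which Rgs10 rose. Of the 12 markers 10 were lower and 2 higher in the knockout. Every knockout library lay below every wild-type library in 3 of them (3.25% of all genes). The part of microglial RNA in the Rgs10 level was not tested.

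**Figure D4:**
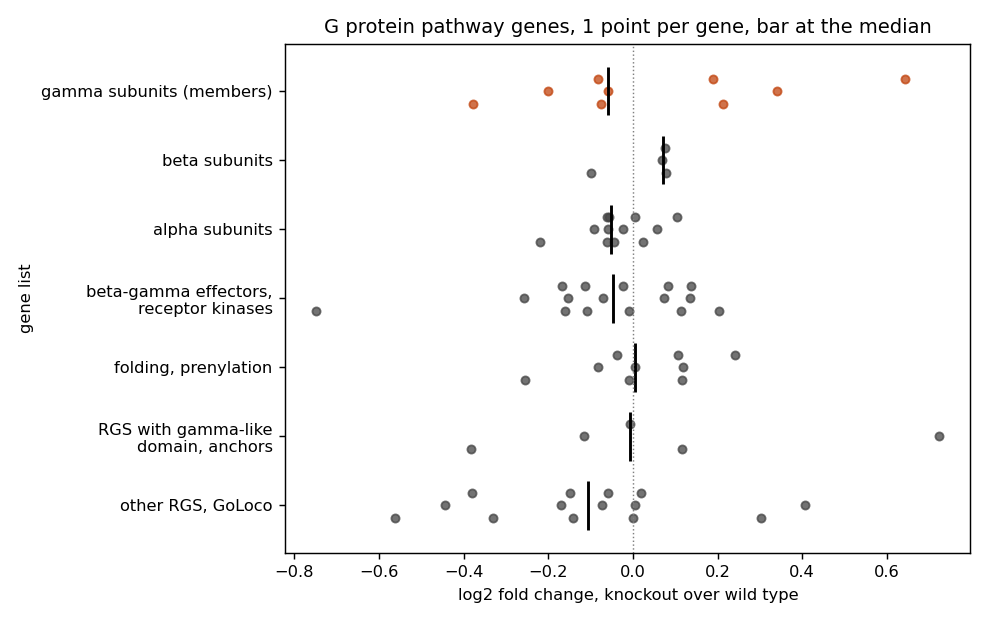
Log2 fold change, knockout over wild type (horizontal axis), of each tested gene in the gamma subunit group (orange) and in 6 lists of other G protein pathway genes (grey), with a bar at each median. The gamma subunits spread from -0.38 to 0.64, the value of Gng4, which chose the group, and the next highest is Gng3 at 0.34. Beta subunits all lie between -0.10 and 0.079. A wide spread was not particular to gamma subunits. RGS genes with a gamma-like domain and their anchors ran from -0.38 to 0.72, and other RGS and GoLoco genes from -0.56 to 0.41. The scarce Gngt2 and Gng8, at -0.68 and -0.23, are not drawn.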

How the data were processed

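The authors' deposited count table holds RSEM expected counts per gene for 12 entries, unscaled, per the file headers. Per the submitters' processing notes, STAR 2.5.3a, RSEM 1.3.0, edgeR and the mm10 build were used; for annotation release and strand setting, the sources used here give nothing. The deposited comparison table gives log2 fold changes and adjusted p-values of the authors.

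Both entries of a library were summed and rounded (median chi-square per feature between entries 0.467 to 0.494). Genes were filtered with filterByExpr, which left 14990, and scaled by TMM. edgeR 4.0.16 (R 4.3.3, limma 3.58.1) fitted genotype by quasi-likelihood, with Benjamini-Hochberg adjustment over all genes. SE and intervals came from its F statistic (8.24 degrees of freedom). Log2 levels used a prior count of 2. The script was tested on simulated data. There it called 27 of 100 genes changed 2-fold and 93 of 100 changed 4-fold, with 11 false calls. Simulated counts took the spread per gene that the fit estimated, and changed genes had a log2 CPM above 1. These shares check the script only and need not hold for the libraries themselves, where Fmr1 was not called. The members and all lists were chosen with earlier results of these data known. Named were all members, up to 3 genes per list by smallest p, and 5 genes most like Gng4 by each measure. Tried alternatives included DESeq2 1.42.0, limma voom and leaving out each library.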

Additional observations from a re-analysis of the deposited data

How the results depend on the processing

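Over 15 alternatives the log2 fold change of Gng4 stayed between 0.58 and 0.77, and the ratio of its group means was 1.57 with DESeq2 size factors. Gng4 was chosen for groups that do not overlap, which largely fixed this sign, so the range is a description only. No member passed the adjusted threshold in any of the 15. Over all genes, edgeR's quasi-likelihood test called 0 (265 at an unadjusted p under 0.05), DESeq2 called 8, edgeR's exact test 9, limma voom 0, the fit without a filter 6 and the fit with ribosomal RNA share as covariate 1. Leaving out 1 library gave 0 to 2 calls, with 2 without knockout library 18. The cause of these differences was not tested.

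Log2 fold changes that changed sign are given by setting. With ribosomal RNA share as covariate they were -0.18 for Gng5, 0.26 for Gng11 and 0.40 for Gng8. With month as a covariate Gng11 was at 0.071. Without knockout libraries 14 and 16, which leaves 1 knockout library assumed to vary like the wild type, they were -0.15 for Gng5, 0.37 for Gng11, 0.30 for Gng8 and 0.023 for Gnas. When single libraries were left out, Gng5 ran from -0.014 to 0.37, Gng10 from -0.19 to 0.067, Gng11 from -0.37 to 0.051, Gng12 from -0.29 to 0.20, Gng13 from -0.24 to 0.41 and Gng8 from -0.79 to 0.14. Gnb2 ran from -0.0036 to 0.12, Gnb5 from -0.073 to 0.25 and Gna12 from -0.026 to 0.27. The cause was not tested. Depth limits Gng11 and Gng13 most, whose counting error reached 14.9% and 14.0% in library 16.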
